A study of Mus musculus with 8 samples.

Results

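Interleukin-6 family cytokines and their receptors were followed in mouse oral tumours that had been injected with the chemokine CXCL10 or with vehicle. The members were taken by gene symbol: Il6, Lif and Il11 among the cytokines, and Il6ra and Il6st among the receptor chains. Of these 5 genes, 4 had values among the 693 genes of the deposited table. Il11, which encodes a cytokine with its own receptor alpha chain, had no row there, and the authors' flags mark its probe as pruned. It was not analysed here.

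The tumours came from the oral squamous carcinoma cell line 4MOSC1, which is of mouse origin, and the cells had been placed in the right cheek of female C57BL/6N mice aged 4 to 6 weeks. Mice were randomized at a mean tumour volume of 10 to 20 mm3, and RNA was taken from whole tumours and measured with a probe panel that consists mainly of genes of the immune system. In the CXCL10 group (n = 4), 10 µg of chemokine in 50 µl of PBS had been injected into the tumour on days 3, 6 and 9 after implantation. In the vehicle group (n = 4), 50 µl of PBS alone had been injected on the same days. The titles place every tumour at day 10. In the source field of the labels each tumour carries a different day, rising with the tumour number. The days there run from 10 to 13 in vehicle tumours 1 to 4 and from 14 to 17 in CXCL10 tumours 1 to 4. If those days were right, day and treatment could not be told apart. Since no label ties a tumour to an animal, the spread behind each p-value is that of these 8 samples. Levels are given as normalized counts, which are probe counts times 1 factor per tumour set by the authors, or as their log2. Whole counts recovered from the values summed to between 1028938 and 1167694 per CXCL10 tumour and to between 973697 and 1021358 per vehicle tumour. Before scaling, every CXCL10 tumour thus had a higher total than every vehicle tumour. The carcinoma markers Epcam, Cdh1, Egfr and Itgb4 were all measured, with at least 592 counts in every tumour.

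Most cytokines of this family signal through gp130, the shared chain encoded by Il6st, which pairs with other receptor chains depending on the ligand. IL-6 first binds the IL-6 receptor alpha chain, encoded by Il6ra, on the cell surface or in soluble form, whereas LIF binds the LIF receptor. gp130 then activates JAK kinases and the transcription factor STAT3, and STAT3 induces the feedback inhibitor SOCS3. In carcinomas IL-6 and LIF are made by tumour cells, fibroblasts and myeloid cells, and NF-kB, C/EBP and AP-1 factors act on the promoter of Il6.

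The promoters of Il6, Lif and Il6ra are shown because Lif and Il6ra were the pair of members whose levels went together most closely across the tumours, and Il6 because it encodes the ligand of that receptor. Each run is the 250 bases before the gene's start in RefSeq (GRCm38.p6), on the gene's strand. Capitals mark matches to GGANTTTCC for NF-kB, TTCNNNGAA for STAT and TTNNGNAA for C/EBP, and to an AP-1 site. The AP-1 letters searched were TGAGTCA, all motifs were read on both strands, and no 2 matches overlap.
Il6, chr5:30012864-30013113, plus strand: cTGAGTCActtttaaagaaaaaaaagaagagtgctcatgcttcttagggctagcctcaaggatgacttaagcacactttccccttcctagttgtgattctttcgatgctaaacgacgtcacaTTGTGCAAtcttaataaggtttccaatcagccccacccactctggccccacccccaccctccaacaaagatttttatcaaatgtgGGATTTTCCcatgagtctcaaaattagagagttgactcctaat
Lif, chr11:4257318-4257567, plus strand: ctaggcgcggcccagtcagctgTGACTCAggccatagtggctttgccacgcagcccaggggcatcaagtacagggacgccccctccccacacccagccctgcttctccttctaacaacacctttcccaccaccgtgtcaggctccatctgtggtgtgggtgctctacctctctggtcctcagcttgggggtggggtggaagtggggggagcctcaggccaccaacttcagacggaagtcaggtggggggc
Il6ra, chr3:89913197-89913446, minus strand: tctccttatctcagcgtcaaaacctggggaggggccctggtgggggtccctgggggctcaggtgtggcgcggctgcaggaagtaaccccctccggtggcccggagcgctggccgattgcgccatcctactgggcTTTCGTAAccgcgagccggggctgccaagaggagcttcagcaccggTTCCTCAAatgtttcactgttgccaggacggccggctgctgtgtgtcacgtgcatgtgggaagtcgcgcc
The Il6 window held the NF-kB letters GGATTTTCC, 43 to 35 bases before the start, the C/EBP letters TTGTGCAA, and the AP-1 letters TGAGTCA. The Lif window held TGACTCA alone, 228 to 222 bases before the start, which reads TGAGTCA on the other strand. The Il6ra window held the C/EBP letters TTTCGTAA, which read TTNNGNAA on both strands, and TTCCTCAA, which reads TTNNGNAA on the other strand only. Among 32851 windows of this length, 1.07% held the NF-kB letters, 7.02% the STAT letters, 4.46% the AP-1 letters and 36.85% the C/EBP letters. None of these 3 windows held the STAT letters, nor did that of Il6st, which held no match at all. These matches describe the letters only.

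The comparison asked whether the injected chemokine was accompanied by other RNA levels of these genes than PBS. Mean levels of Il6, Lif and Il6ra were higher after CXCL10, by 1.23-fold, 1.25-fold and 1.15-fold, and Il6st was at 0.971 of its vehicle level. None of the 4 genes passed limma's test over the panel (adjusted p from 0.342 to 0.886), where 0.289% of the 693 genes were called at an adjusted p under 0.05. The called genes were Cd96, a receptor of T and NK cells, with a log2 difference of 0.82, and Il18r1, a chain of the interleukin-18 receptor, with one of 0.59 (limma adjusted p = 0.0462 each). Levels of Cd96 were low, with mean log2 levels of 5.13 ± 0.12 in CXCL10 tumours and 4.31 ± 0.19 in vehicle tumours (SD, n = 4 each). The count of called genes was 0 when any tumour other than vehicle tumour 2 was left out and 5 without that tumour. At an unadjusted p under 0.05, 0 of the 4 members and 132 panel genes (19%) were counted. The levels of CXCL10 and vehicle tumours overlapped in every member, while the groups did not overlap for 10.8% of panel genes (7.79% higher and 3.03% lower in CXCL10 tumours).

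**Figure D1:**
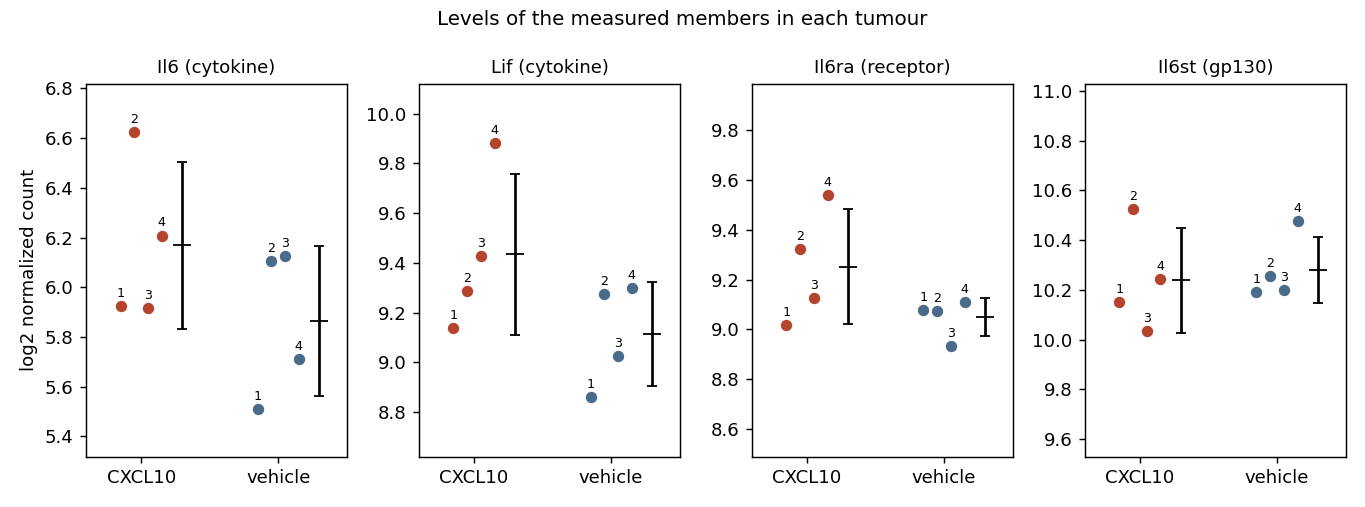
Level of each measured member in each tumour, as the log2 normalized count, with the tumour number beside each point and the mean and SD (n = 4) as a bar to the right. All panels span the same log2 range, and CXCL10 tumours overlap vehicle tumours in each of them.

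Il6 encodes interleukin-6, the inflammatory cytokine that gives the family its name. Its level was 60.7, 98.8, 60.3 and 73.9 normalized counts in CXCL10 tumours 1 to 4, against 45.6, 68.9, 69.9 and 52.4 normalized counts in vehicle tumours 1 to 4. CXCL10 tumours 2 and 4 lay above every vehicle tumour, vehicle tumours 1 and 4 lay below every CXCL10 tumour, and vehicle tumours 2 and 3 lay above CXCL10 tumours 1 and 3. The mean log2 level was 6.17 ± 0.33 in CXCL10 tumours and 5.86 ± 0.30 in vehicle tumours (SD, n = 4 each). The log2 difference was 0.30 (SE 0.20, 95% interval -0.14 to 0.75, limma adjusted p = 0.428). All 4 CXCL10 tumours stood above the vehicle mean. Without CXCL10 tumour 2 the difference was 0.15, and without vehicle tumour 1 it was 0.19.

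Il6 was the member with the lowest counts. Recovered counts ran from 45 in vehicle tumour 1 (95% exact Poisson interval 32.8 to 60.2) to 92 in CXCL10 tumour 2 (74.2 to 113), and such intervals cover counting error only. Counting alone gives a log2 SD of 0.18 for Il6, against a measured SD within groups of 0.32. For Lif, Il6ra and Il6st counting gives 0.059, 0.061 and 0.041, against measured SDs of 0.27, 0.17 and 0.18. The precision of Il6 was thus limited by counting more than that of the other members.

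Lif encodes leukaemia inhibitory factor, which also signals through gp130. Its level was 563, 625, 689 and 944 normalized counts in CXCL10 tumours 1 to 4, against 464, 619, 520 and 629 normalized counts in vehicle tumours 1 to 4. CXCL10 tumours 3 and 4 lay above every vehicle tumour, and vehicle tumours 1 and 3 below every CXCL10 tumour. The mean log2 level was 9.43 ± 0.32 in CXCL10 tumours and 9.11 ± 0.21 in vehicle tumours (SD, n = 4 each). The log2 difference was 0.32 (SE 0.18, 95% interval -0.07 to 0.71, limma adjusted p = 0.342), the smallest p of the members and rank 204 of the 693 genes. Without CXCL10 tumour 4, which held the highest level, the difference was 0.17.

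Il6ra encodes the alpha chain that binds IL-6, found on myeloid cells, lymphocytes and hepatocytes. Its level was 518, 639.8, 559 and 745 normalized counts in CXCL10 tumours 1 to 4, against 540.3, 539, 489 and 552 normalized counts in vehicle tumours 1 to 4. CXCL10 tumours 2, 3 and 4 lay above all vehicle tumours, and CXCL10 tumour 1 lay below 3 of the 4. The mean log2 level was 9.25 ± 0.23 in CXCL10 tumours and 9.05 ± 0.08 in vehicle tumours (SD, n = 4 each). The log2 difference was 0.20 (SE 0.13, 95% interval -0.10 to 0.50, limma adjusted p = 0.435), and it was 0.11 without CXCL10 tumour 4.

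Il6st encodes gp130, the signalling chain that IL-6, LIF and most of the family share. Its level was 1136, 1473, 1048 and 1211 normalized counts in CXCL10 tumours 1 to 4, against 1168, 1223, 1176 and 1423 normalized counts in vehicle tumours 1 to 4. The highest and the lowest tumour were both CXCL10 tumours, numbers 2 and 3, and the vehicle tumours lay between them. The mean log2 level was 10.24 ± 0.21 in CXCL10 tumours and 10.28 ± 0.13 in vehicle tumours (SD, n = 4 each). The log2 difference was -0.04 (SE 0.14, limma adjusted p = 0.886). Its 95% interval, -0.35 to 0.26, corresponds to folds of 0.787 to 1.20. The difference turned positive without CXCL10 tumour 3 (0.03) and without vehicle tumour 4 (0.02), and was -0.14 without CXCL10 tumour 2.

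The direction of a gene depends in part on how tumours are scaled. Over all 693 genes the log2 difference had a median of 0.13, and 482 genes (69.6%) were higher in CXCL10 tumours, against 52.7% to 58.4% under 3 other scalings. Relative to that median, Lif stood at 0.19, Il6 at 0.18, Il6ra at 0.08 and Il6st at -0.17. Under those scalings, which were quantile normalization, median-of-ratios scaling and centring on the panel median, the differences ran from 0.19 to 0.24 for Lif, from 0.11 to 0.22 for Il6, from 0.09 to 0.12 for Il6ra and from -0.15 to -0.12 for Il6st. In bulk tumours fewer cells of a type and less RNA per cell cannot be told apart.

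**Figure D2:**
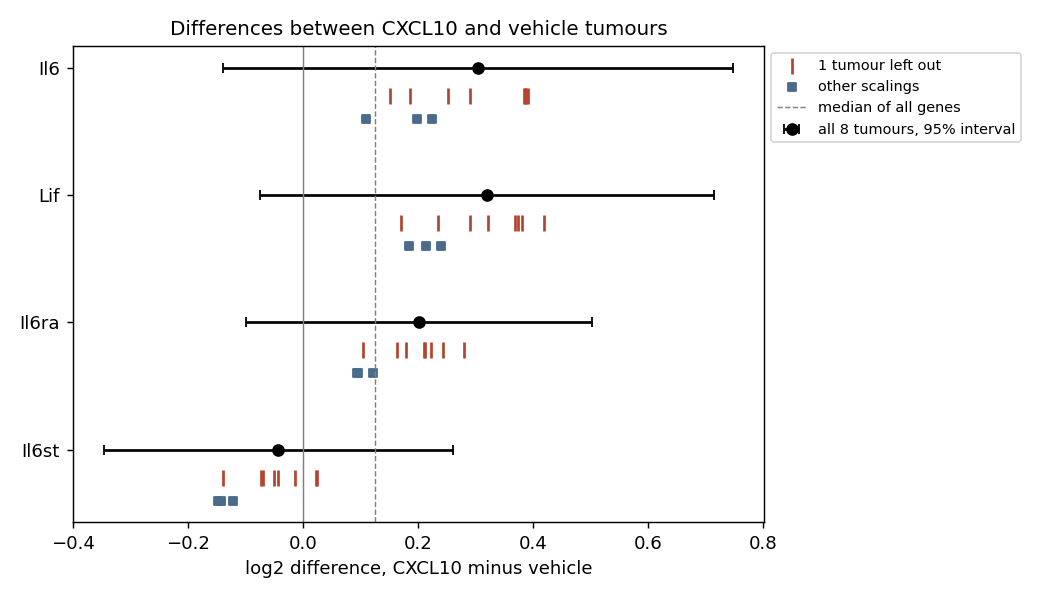
Log2 difference of each member, CXCL10 minus vehicle, with its 95% interval (black), the values with 1 tumour left out (red ticks) and the values under 3 other scalings (blue squares). Every interval spans 0, and Il6st is the member whose values lie on both sides of 0 when a tumour is left out.

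The members also differed in how much they varied over the 8 tumours as a whole. The coefficient of variation in the authors' deposited table was 23.09% for Lif, 20.64% for Il6, 14.1% for Il6ra and 8.02% for Il6st. The median of the 693 genes was 16.22%, and 638 genes had a higher value than Il6st. These values describe counts before scaling, since those of the recovered counts matched them within 0.02 points for all 693 genes. On unscaled counts the ligands thus varied more than most panel genes, and gp130 was among the least variable. For Il6, part of this variation is counting error, which alone gives a log2 SD of 0.18. Unscaled counts also carry the differences in total count between tumours. On log2 normalized counts the SD within groups was 0.176 for Il6st and 0.172 for Il6ra, against 0.272 for Lif and 0.319 for Il6.

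Across the tumours, Lif and Il6ra went together most closely of the 6 pairs of measured members. Pearson's r was 0.82 (exact permutation p = 0.0170, adjusted over 6 pairs 0.102, n = 8 tumours) and Spearman's rho was 0.79 (exact permutation p = 0.0279, adjusted 0.168), so the relation did not pass. CXCL10 tumour 4 had the highest level of both genes. Without that tumour and vehicle tumour 1, which lay farthest from the median of Lif, r was 0.65 (exact permutation p = 0.15, n = 6). Spearman's rho was then 0.83 (exact permutation p = 0.0583, n = 6). With these fewer tumours neither was under an unadjusted p of 0.05, though rho was no lower than over all 8. Over all 8 tumours, r on deviations from the group means was 0.74. Within the groups (n = 4 each), r was 0.85 in CXCL10 tumours and 0.37 in vehicle tumours. Under the 3 other scalings r lay between 0.68 and 0.75 and rho between 0.33 and 0.57, with adjusted exact permutation p from 0.285 to 0.412 for r and from 0.840 to 0.898 for rho (n = 8). The other 5 pairs had r between 0.06 for Lif with Il6st and 0.47 for Il6 with Il6ra, with adjusted exact permutation p from 0.490 to 0.887 (n = 8). Their rho lay between 0.19 and 0.45, with adjusted exact permutation p from 0.644 to 0.665. CXCL10 tumour 2 had the highest level of both Il6 and Il6st. All values of a tumour share 1 scaling factor, which by itself can make genes go together.

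**Figure D3:**
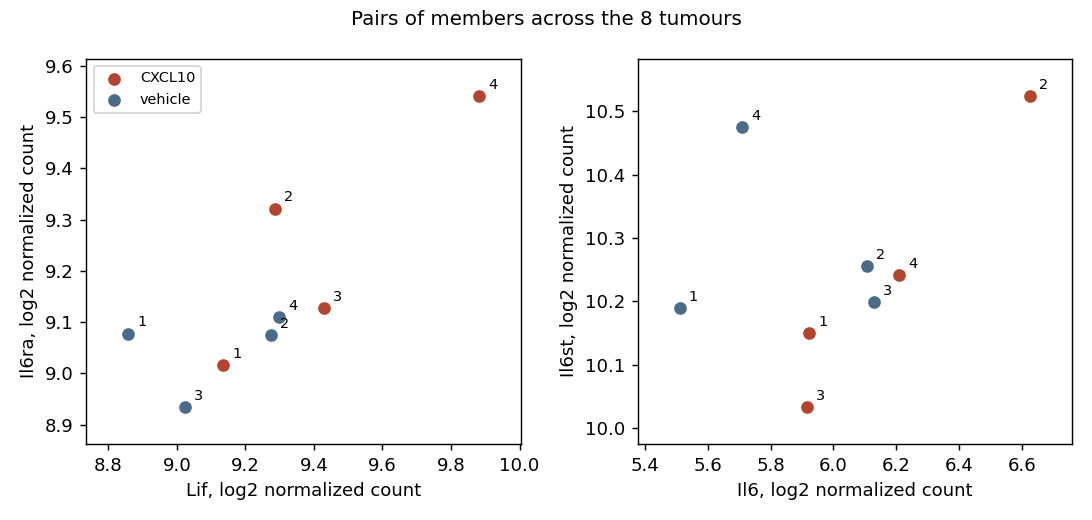
Log2 normalized counts of Lif against Il6ra (left) and of Il6 against Il6st (right) in the 8 tumours, coloured by group and numbered by tumour. CXCL10 tumour 4 is at the upper right for Lif and Il6ra, and CXCL10 tumour 2 for Il6 and Il6st.

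For each member the 3 genes most like it were taken as those with the highest Pearson r of deviations from the group means over the 8 tumours, out of 692 genes. These are descriptions of the top of a long list, and the median r over all 692 genes was 0.30 for Il6, 0.24 for Lif, 0.40 for Il6ra and 0.31 for Il6st. Il6 was closest to Cd164, a sialomucin (r = 0.97), Col1a1, a chain of type I collagen (0.97), and Abca1, a cholesterol exporter (0.96). Col1a1, at -0.27 (SE 0.14, limma adjusted p = 0.322), and Abca1, at -0.17 (SE 0.17, limma adjusted p = 0.619), nevertheless had mean differences of the opposite sign to Il6. Lif was closest to the interferon lambda gene Ifnl2 (0.96), to Tnfaip3, which encodes the NF-kB inhibitor A20 (0.95), and to the arginase gene Arg1 (0.94). Mean log2 levels of Ifnl2 were low, 4.85 ± 0.32 in CXCL10 tumours and 4.46 ± 0.14 in vehicle tumours (SD, n = 4 each). Tnfaip3 had a log2 difference of 0.36 (SE 0.13) and, like 10.8% of panel genes, no overlap between the groups, and did not pass (limma adjusted p = 0.195). Il6ra was closest to the kinase gene Map3k1 (0.98), to Tnfrsf14, the receptor HVEM (0.96), and to the transcriptional co-regulator gene Sbno2 (0.96). Map3k1 (-0.04, SE 0.12) and Sbno2 (-0.12, SE 0.15) likewise had mean differences of the opposite sign to Il6ra. Il6st was closest to Tal1, a transcription factor of blood and endothelial cells (0.99), to the cytokine gene Tgfb1 (0.97) and to Plau, the urokinase gene (0.97).

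The rest of the pathway was described by 5 lists with 46 measured genes other than the members. None of the 46 passed over the panel by limma, 5 (10.9%) had an unadjusted p under 0.05, against 19% of all 693 genes, and 24 were higher and 22 lower in CXCL10 tumours. Their median log2 difference was 0.02, against 0.13 over all 693 genes. With the 3 other scalings 15 to 16 of the 46 were higher, with medians from -0.09 to -0.06.

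Among other ligands of the family, 2 of 7 listed genes were measured and both were lower. Osm, which encodes oncostatin M, a gp130 ligand of myeloid cells, stood at -0.19 (SE 0.20, limma adjusted p = 0.620). Ebi3, which encodes a subunit of interleukin-27 and interleukin-35, stood at -0.04 (SE 0.16). Of the other receptor chains and the proteases that shed receptors, 1 of 8 was measured. That gene, Il11ra1, the alpha chain that binds interleukin-11, stood at -0.01 (SE 0.18, limma adjusted p = 0.987). Its level in vehicle tumour 4 was well above those in the other vehicle tumours, and without that tumour its difference turned positive, at 0.17. It was also positive without CXCL10 tumour 1 (0.05) or CXCL10 tumour 3 (0.03).

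Of the signal transduction genes, 6 of 9 were measured, 5 were higher and none passed, with a median of 0.10, against 0.13 over the whole panel. Jak2, a kinase activated by gp130, stood at 0.34 (SE 0.23, limma adjusted p = 0.429), and its relative Jak1 at 0.14 (SE 0.12). Stat3, the main transcription factor of the pathway, had a mean log2 level of 11.02 ± 0.16 in CXCL10 tumours and 10.98 ± 0.06 in vehicle tumours (SD, n = 4 each). Its difference was 0.04 (95% interval -0.22 to 0.30). Socs1, an inhibitor of JAK kinases, stood at 0.13 (SE 0.14). The median of this list was -0.016 under quantile normalization and -0.0083 under median-of-ratios scaling.

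Known targets of STAT3 and acute-phase genes went both ways. Of 31 listed genes 17 were measured, 8 were higher and 9 lower, the median was -0.02 (-0.13 to -0.10 under the 3 other scalings, -0.06 to 0.02 with 1 tumour left out) and none passed. Socs3, the feedback inhibitor that STAT3 induces, had log2 levels of 8.03, 8.03, 8.17 and 8.37 in CXCL10 tumours 1 to 4, against 8.16, 8.34, 8.26 and 8.13 in vehicle tumours 1 to 4. The groups overlapped, and the difference was -0.07 (95% interval -0.34 to 0.20, limma adjusted p = 0.761). Mmp9, a matrix protease also made by leucocytes, stood at -0.53 (SE 0.15, limma adjusted p = 0.167), with every CXCL10 tumour below every vehicle tumour. It was the only 1 of the 17 without overlap, against 10.8% of all 693 genes. Lbp, an acute-phase protein that binds lipopolysaccharide, stood at -0.52 (SE 0.21, limma adjusted p = 0.223). On the other side Vegfa, the vascular growth factor, stood at 0.48 (SE 0.20, limma adjusted p = 0.233). Myc, the growth-related transcription factor, stood at -0.21 (SE 0.13).

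Inducers of IL-6 and LIF likewise went both ways. Of 22 listed genes 21 were measured, 11 were higher and 10 lower, and none passed. The median was 0.01 and turned negative under the 3 other scalings (-0.09 to -0.07). With 1 tumour left out it ran from -0.06 to 0.06. Il1r1, the signalling receptor for interleukin-1, stood at 0.32 (SE 0.17) and its co-receptor Il1rap at 0.35 (SE 0.18), with limma adjusted p of 0.330 and 0.325. Il17ra, a receptor chain for interleukin-17, stood at -0.24 (SE 0.11, limma adjusted p = 0.259), and Tgfb3, a TGF-beta cytokine, at -0.39 (SE 0.12, limma adjusted p = 0.167). In both of these genes every CXCL10 tumour lay below every vehicle tumour. They were the only 2 of the 21 without overlap, and 10.8% of all 693 genes had none.

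**Figure D4:**
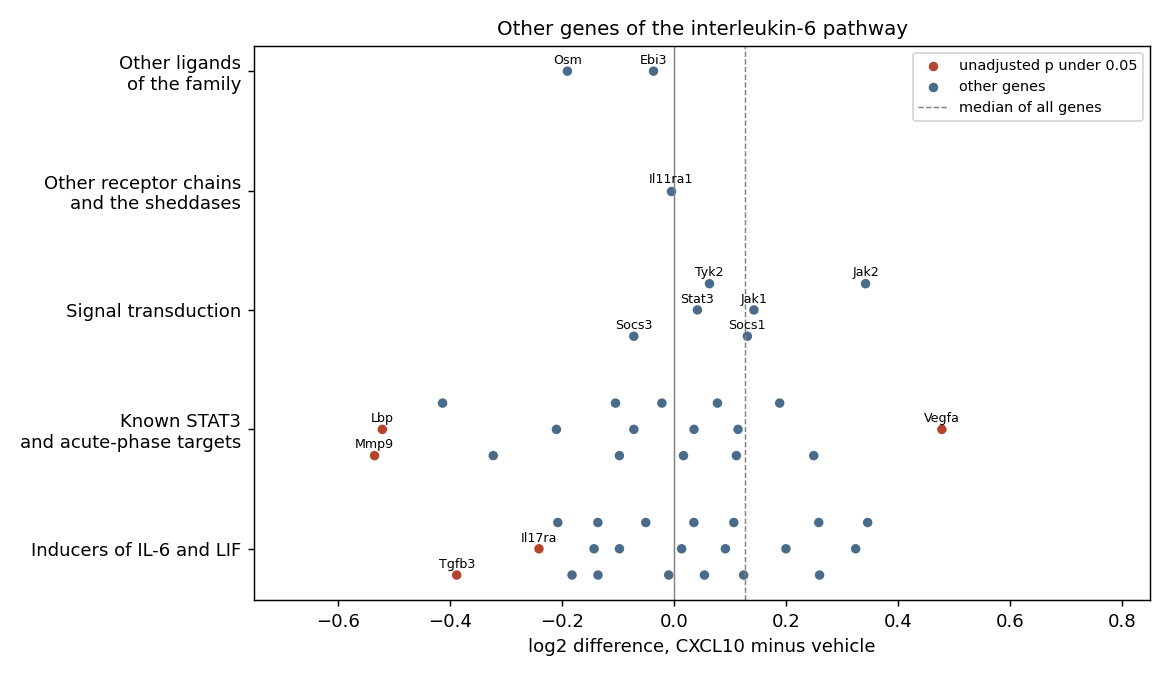
Log2 differences, CXCL10 minus vehicle, of the 46 other pathway genes by list, with genes of an unadjusted p under 0.05 in red. The points lie on both sides of 0 in the lists of targets and of inducers, and no gene passed the adjusted test.

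Markers of cells that can make or receive these cytokines were also read. Their values are given under the reported scaling only, where 69.6% of all 693 genes were higher in CXCL10 tumours, with a median log2 difference of 0.13. Fibroblast and matrix markers were lower in 5 of 6 measured genes (median -0.11), with summed normalized counts of 61205 to 95685 in CXCL10 tumours and 64606 to 88274 in vehicle tumours. Monocyte and macrophage markers were higher in 6 of 9 (median 0.03), with sums of 10859 to 19156 in CXCL10 tumours and 10860 to 14073 in vehicle tumours. The listed macrophage marker Adgre1 was in the panel under its older symbol Emr1 and is left out of these counts and sums. Emr1 stood lower, at -0.27 (SE 0.20, limma adjusted p = 0.477). Endothelial markers were lower in 7 of 7 (median -0.41), with sums of 1989 to 2712 in CXCL10 tumours and 2663 to 3321 in vehicle tumours. T cell markers were higher in 9 of 9 (median 0.29), with sums of 2454 to 3016 in CXCL10 tumours and 1822 to 2498 in vehicle tumours. The carcinoma list had a median of 0.06 (3 of 4 higher), the neutrophil list -0.19 (0 of 3), the B and plasma cell list -0.02 (2 of 4) and the list of mast cells and eosinophils 0.27 (4 of 4). No marker was at 0 in all tumours. Without Emr1, 0 of the 46 markers matched by symbol passed by limma over the panel, and 12 (26.1%) had an unadjusted p under 0.05, against 19% of all 693 genes. Of these 12, 6 were among the 7 endothelial markers and 5 among the 9 T cell markers. The part of these cells in the levels of the members was not tested.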

How the data were processed

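The members and gene lists were chosen with earlier results of these data known. The authors deposited log2 normalized counts of 693 genes in 8 tumours, and a coefficient of variation in percent and pruning flags per probe. Per the file headers 55 of 748 endogenous probes were pruned, Il11 among them, and 6 of 20 housekeeping genes were used in normalization. The instrument and software: not given in the sources used here. A further 16 columns of values, named by lane and not by sample, were not used, so probe background was not assessed.

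Taken out of log2, 100% of values in each tumour were whole multiples of 1 step, within 0.02 counts, which gave whole counts. The test was limma 3.58.1 (lmFit, eBayes; R 4.3.3) applied to those log2 values, with group as the only term and Benjamini-Hochberg adjustment over 693 genes (threshold 0.05). Correlations used exact permutation over all pairings. The fit was tested on simulated data as a check of the code. Genes were drawn independently of each other there, and no result for the members rests on that check. Genes named are the members, the 4 genes of smallest p in each pathway list, the 3 genes most like each member, and the 2 called genes. Any other gene of the pathway lists could also be named, as Stat3 is. The 4 carcinoma markers check the tissue, and Dll4 and Emr1 were named after their values were seen. Of the listed genes 1 is not reported here and counts in no list. The promoters shown were chosen after the values were seen. Alternatives were a variance trend, voom weights, 3 scalings, pseudocounts of 1 and 10, a mean of at least 50 counts, a replicate block and each tumour left out.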

Additional observations from a re-analysis of the deposited data

Results flagged for a closer look

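Each group of 4 values was searched for a highest or lowest tumour set off from its neighbour by most of that group's spread (Dixon's criterion). Of 66 groups of values searched, 1 held one, where chance gives about 1 in 20. Il11ra1 stood high in vehicle tumour 4, where its log2 level was 7.65 and the other vehicle tumours lay between 6.91 and 6.999.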

How the results depend on the processing

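Under all 17 alternatives the adjusted p of each member stayed above 0.05 (0.214 to 0.964), and 0 of the 46 pathway genes passed. Lif, Il6 and Il6ra kept a positive difference in all 17, from 0.17 to 0.42, from 0.11 to 0.39 and from 0.09 to 0.28. Il6st was negative in 15, reversing without CXCL10 tumour 3 and vehicle tumour 4, and ran from -0.14 to 0.026 with 1 tumour left out. The count of panel genes called, 2 in the reported fit, was 0 with a mean-variance trend, voom weights, median-of-ratios scaling, panel median centring, a pseudocount of 10, a mean of at least 50 counts or the replicate block, and 1 with quantile normalization (Dll4). With 1 tumour left out it ran from 0 to 5, and only the fit without vehicle tumour 2 called any. The filter for a mean of at least 50 counts took the called gene Cd96 out of the test. Same-numbered tumours had correlations of deviations of 0.25, -0.32, 0.23 and -0.26. Of the 8 tumours, 3 correlated best with the tumour of their own number in the other group. These values show no clear pairing by number, but so few of them cannot exclude one. With the replicate block the members' adjusted p lay between 0.242 and 0.869.

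Among pairs of members, r turned negative with median-of-ratios scaling and panel median centring for Lif and Il6st (-0.39 and -0.38), Il6 and Il6ra (-0.059 and -0.020) and Il6ra and Il6st (-0.27 and -0.28). It did so without the 2 tumours farthest from the median for Lif and Il6 (-0.089) and Il6 and Il6st (-0.35). With quantile normalization, added after the values were seen, it was negative for Lif and Il6 (-0.0067), Lif and Il6st (-0.38), Il6 and Il6ra (-0.21), Il6 and Il6st (-0.028) and Il6ra and Il6st (-0.088). For Lif and Il6ra it was 0.68 with quantile normalization, 0.73 with median-of-ratios scaling and 0.75 with panel median centring, where rho, 0.79 as reported, was 0.41, 0.33 and 0.57. The cause of these changes was not tested.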
